A study of Homo sapiens with 9 samples.

Results

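The 10 genes described here encode enzymes of tryptophan breakdown and of nicotinamide metabolism: TDO2, AFMID, KMO, KYNU, HAAO, ACMSD, QPRT, NAMPT, NAPRT and NNMT. They were chosen by their place in these pathways together with an earlier reading of the same arrays, in which TDO2 was higher and NNMT lower after SPTLC123 siRNA. Every probe set that the platform's annotation maps to 1 of these symbols and to no other was kept, which gave 23 of 54613 probe sets, for 10 of 19775 genes. No probe set shared between several genes held a member. NAMPT and KYNU had 4 probe sets each, KMO and NNMT 3 each, TDO2, QPRT and NAPRT 2 each, and AFMID, HAAO and ACMSD 1 each.

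RNA came from Huh7, a human hepatocarcinoma line grown alone in culture, on 9 Affymetrix arrays that the labels give as 3 biological replicates of 3 groups. The SPTLC123 group received siRNA against SPTLC1, SPTLC2 and SPTLC3, the subunits of serine palmitoyltransferase, which starts sphingolipid synthesis. The DEGS1 group received siRNA against dihydroceramide desaturase, a later enzyme that turns dihydroceramide into ceramide, and the scramble group received a control siRNA. All groups shared the lipid reagent, a final siRNA concentration of 20 nM and a change to low-serum conditioned medium before harvest. By the titles the cells were taken at 72 h, but the protocol for the siRNA treatment has the medium change then and the harvest a day later. All groups are a single tumour line, and the arrays measured transcripts, not enzymes or metabolites.

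In the liver, most tryptophan that is not built into protein is broken down by the kynurenine route. TDO2, a haem enzyme of hepatocytes, opens the indole ring; AFMID then releases formate to give kynurenine, KMO hydroxylates it, KYNU cleaves the product and HAAO opens the ring again to form an unstable semialdehyde. That semialdehyde either closes to quinolinate, which QPRT carries into NAD synthesis, or is decarboxylated by ACMSD and leaves the route to NAD. NAMPT starts NAD synthesis from nicotinamide and NAPRT from nicotinic acid, while NNMT methylates nicotinamide with S-adenosylmethionine and so takes it out of the NAD cycle.

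RefSeq's promoter table (GRCh38.p14) held 7 of the 10 genes. The 250 bases before the annotated start are shown for TDO2, the member with the highest level after SPTLC123 siRNA relative to scramble, and for HAAO, the later enzyme of the same route whose level went the other way. Both read from 5′ to 3′ on the gene's own strand, and capitals mark matches on either strand to TATAAA (the core of the TATA box), to the CCAAT box and to AGAACA.
TDO2 (chr4:155903446-155903695, plus strand): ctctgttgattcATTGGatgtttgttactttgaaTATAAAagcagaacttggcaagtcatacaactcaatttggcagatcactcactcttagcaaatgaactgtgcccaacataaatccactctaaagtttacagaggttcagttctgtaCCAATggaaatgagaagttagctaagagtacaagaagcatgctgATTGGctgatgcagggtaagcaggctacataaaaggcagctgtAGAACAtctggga
HAAO (chr2:42792584-42792833, minus strand): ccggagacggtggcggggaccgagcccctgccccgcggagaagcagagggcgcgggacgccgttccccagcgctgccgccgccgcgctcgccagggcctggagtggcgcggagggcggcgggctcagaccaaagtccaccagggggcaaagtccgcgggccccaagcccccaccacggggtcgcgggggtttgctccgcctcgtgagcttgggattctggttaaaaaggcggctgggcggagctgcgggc

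The TDO2 window had a GC content of 40.0%, against a median of 58.0% over 35116 promoters, and 12.7% of them had a lower one. The HAAO window had a GC content of 74.8%, and 89.2% of promoters had a lower one. In the TDO2 window, TATAAA began 216 bases before the start. AGAACA, a core of glucocorticoid receptor sites, began 13 bases before it, and CCAAT or its reverse complement ATTGG lay 238, 100 and 56 bases before it. The HAAO window held no match to these motifs or to GTTAAT, a core of HNF1 sites, and the TDO2 window held no GTTAAT. Over all promoters of the same length, 10.7% held TATAAA, 12.4% held AGAACA, 6.23% held GTTAAT and 32.0% held CCAAT, on either strand. These matches describe the letters of the windows and say nothing of binding in Huh7 cells.

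The targeted genes followed the labels. SPTLC1 and SPTLC2 stood at 20.7% and 48.4% of the scramble signal after SPTLC123 siRNA, and DEGS1 at 7.55% after DEGS1 siRNA, with no overlap between arrays; SPTLC3 was not analysed here. Of 10 hepatocyte markers, 9 were measured and all lay far above the median of all values, ALB and AFP at 14.26 and 14.31 on the log2 intensity scale. Their summed intensity was 79223.41 to 85403.28 in SPTLC123 arrays, 88971.55 to 95484.37 in DEGS1 arrays and 97063.06 to 102806.05 in scramble arrays. Markers of lymphocytes (5 measured) all lay under the median of all values, as did 6 of 7 macrophage markers, 5 of 8 stellate cell or fibroblast markers and 4 of 6 endothelial markers, and none of these markers passed the test in any comparison. The arrays of SPTLC123 replicate 3 and of DEGS1 replicates 2 and 3 had weak signal at the 5′ end of the control transcripts: their actin 3′ signal exceeded the 5′ signal by 1.15 to 1.31 log2 units, against 0.40 to 0.56 in the other 6 arrays. As 2 of these 3 arrays belong to the DEGS1 group and none to scramble, values are also given without them. That leaves 1 DEGS1 array and 2 SPTLC123 arrays, so a call can be lost there with the difference as large. Whether fewer cells of a kind or less RNA per cell lie behind a lower level cannot be told apart in bulk RNA, and the number of arrays limits the precision.

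Levels below are log2 intensity, and differences are log2 differences between group means ± SE from limma, fitted to all 9 arrays. A probe set is called where its Benjamini-Hochberg adjusted p over all 54613 probe sets is under 0.05. The members' levels in SPTLC123 arrays against scramble arrays are given as a description with no test, because values of these arrays chose the genes. For the same reason TDO2 and NNMT are described with no test in DEGS1 against scramble and in DEGS1 against SPTLC123, and the tests cover the 18 probe sets of the other 8 genes. DEGS1 and SPTLC123 arrays were both set against the same 3 scramble arrays, so the 2 sets of differences are not independent of each other.

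TDO2, the entry enzyme, was highest after SPTLC123 siRNA and intermediate after DEGS1 siRNA. Its responsive probe set, 205943_at, had levels of 7.05, 7.32 and 6.48 in SPTLC123 arrays, 6.37, 5.14 and 5.06 in DEGS1 arrays, and 4.96, 4.41 and 4.60 in scramble arrays. Every SPTLC123 array lay above every DEGS1 array, and every DEGS1 array above every scramble array, although both gaps were narrow. The lowest SPTLC123 array (6.48, with weak 5′ signal) was close to the highest DEGS1 array (6.37). The lowest DEGS1 array (5.06) was close to the highest scramble array (4.96). The group means were 6.95 ± 0.43 in SPTLC123, 5.52 ± 0.73 in DEGS1 and 4.66 ± 0.28 in scramble (SD, n = 3 each), and the scramble mean lay under 4.86, the median of all values. The mean was 4.90-fold higher in SPTLC123 than in scramble arrays, a difference of 2.29 ± 0.35. In DEGS1 arrays it was 182% of the scramble signal, a difference of 0.87 ± 0.35.

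The DEGS1 arrays were not alike in TDO2. The array with a normal 5′ control signal, replicate 1, stood at 6.37, more than 1 log2 unit above replicates 2 and 3. Without the 3 arrays with weak 5′ signal the DEGS1 difference from scramble was 1.71, and with the actin 3′ to 5′ difference as a covariate it was 1.49. The first of these rests on 1 DEGS1 array. Without that array, DEGS1 replicate 1, the difference was 0.44. The SPTLC123 difference from scramble was 2.53 without the weak arrays. The second TDO2 probe set, 231702_at, lay near background in all 9 arrays, at 2.90 to 3.43, and showed no group pattern.

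**Figure D1:**
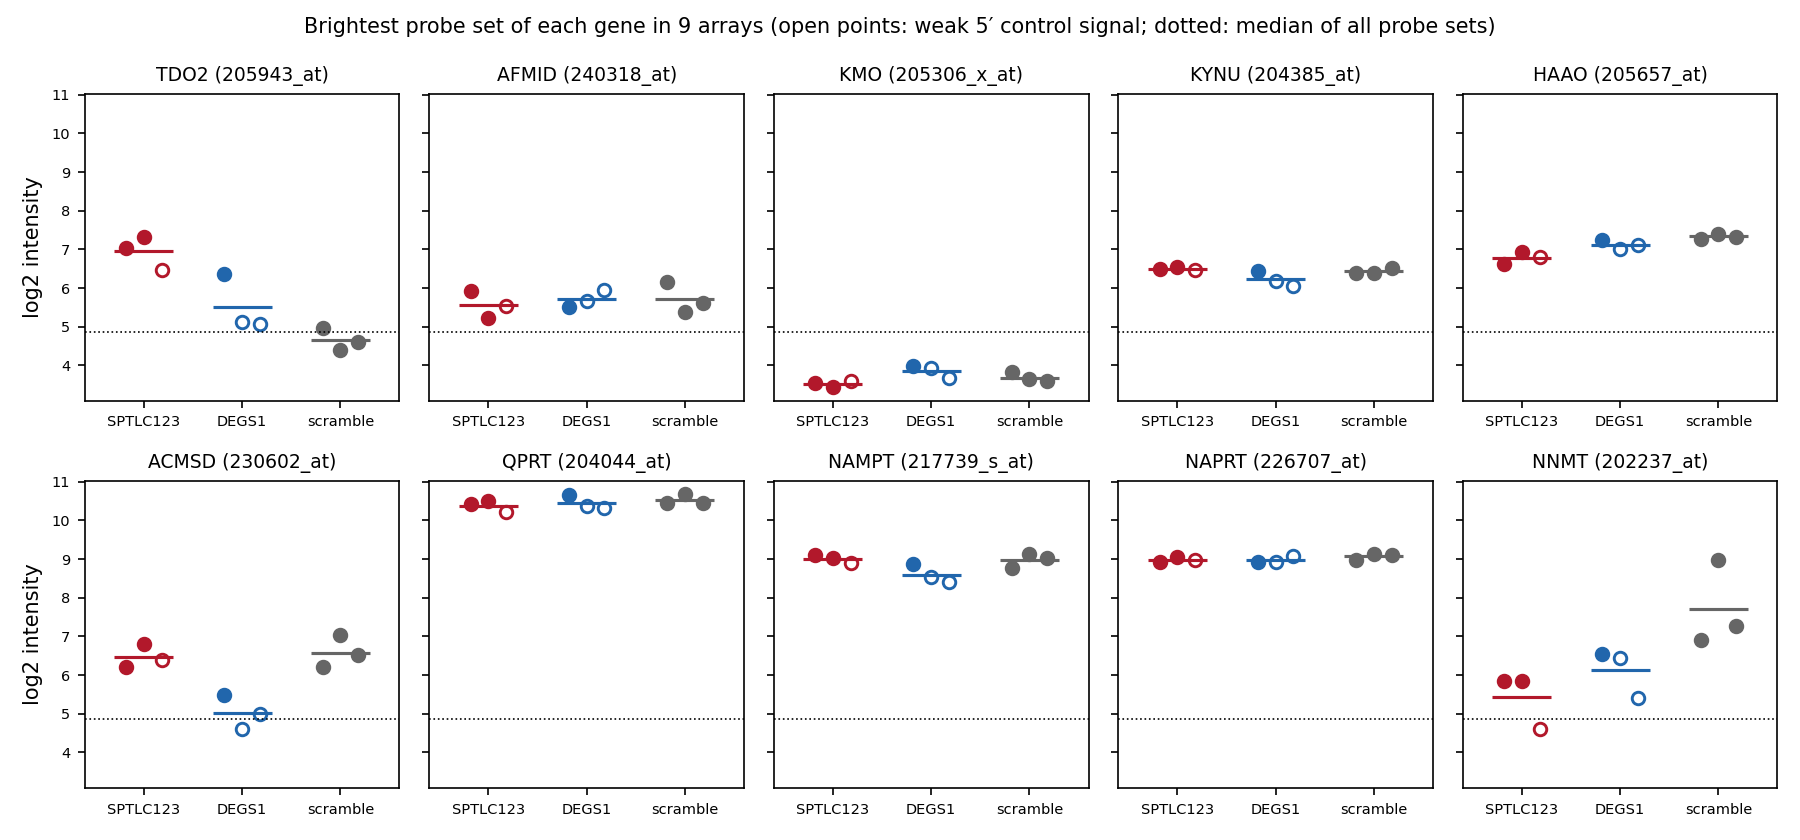
Log2 intensity (y axis) of the brightest probe set of each of the 10 genes in every array, in the order SPTLC123, DEGS1, scramble; points are arrays, bars are group means, open points are the 3 arrays with weak 5′ control signal, and the dotted line is the median of all values. TDO2 separates all 3 groups by narrow gaps, ACMSD is low in the 3 DEGS1 arrays (4.62 to 5.49), and NNMT is highest in scramble (6.90 to 8.99).

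The next steps of the route after TDO2 are those of AFMID and KMO. AFMID, the formamidase, had levels of 5.92, 5.22 and 5.54 in SPTLC123 arrays, 5.52, 5.67 and 5.95 in DEGS1 arrays, and 6.15, 5.38 and 5.61 in scramble arrays. The groups overlapped, and the DEGS1 difference from scramble had a 95% interval of -0.52 to 0.52. KMO, the monooxygenase, lay under the median of all values in every array, at 3.39 to 4.01 over its 3 probe sets, so the arrays measured little of it in any group.

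KYNU, kynureninase, was measured well above the median of all values by 3 of its 4 probe sets. Probe set 204385_at had levels of 6.49, 6.55 and 6.47 in SPTLC123 arrays, 6.44, 6.18 and 6.06 in DEGS1 arrays, and 6.38, 6.39 and 6.53 in scramble arrays. Probe set 217388_s_at had levels of 6.72, 6.92 and 6.57 in SPTLC123 arrays, 6.45, 5.57 and 5.97 in DEGS1 arrays, and 5.84, 6.64 and 6.43 in scramble arrays. Probe set 210663_s_at had levels of 6.43, 6.41 and 5.78 in SPTLC123 arrays, 6.30, 4.99 and 5.20 in DEGS1 arrays, and 5.88, 6.37 and 6.33 in scramble arrays. In 204385_at and 210663_s_at the 2 lowest arrays were DEGS1 replicates 2 and 3; in 217388_s_at scramble replicate 1 lay between them. DEGS1 replicate 1 lay within the range of the other groups in all 3. Their DEGS1 differences from scramble were -0.21 ± 0.11, -0.30 ± 0.25 and -0.69 ± 0.33, and none passed the test (limma adjusted p of 0.321, 0.551 and 0.285). Without the 3 arrays with weak 5′ signal the same differences were 0.0042, 0.15 and 0.11. Without DEGS1 replicate 1, which leaves the weak DEGS1 arrays, the difference of 210663_s_at was -1.10 and called (adjusted p of 0.0124), as it was with array weights (-0.96, 0.0229). The fourth probe set, 210662_at, stayed at 2.58 to 3.03 and its difference of -0.25 ± 0.12 had an adjusted p of 0.276.

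HAAO, the dioxygenase that makes the semialdehyde, was lower in SPTLC123 arrays than in scramble arrays. Its levels were 6.63, 6.92 and 6.82 in SPTLC123 arrays, 7.24, 7.02 and 7.11 in DEGS1 arrays, and 7.27, 7.41 and 7.33 in scramble arrays. The 3 groups did not overlap, in the order scramble, DEGS1, SPTLC123 from high to low. SPTLC123 arrays held 68.5% of the scramble signal, a difference of -0.55 ± 0.10, and the difference ranged from -0.61 to -0.47 over the 16 alternative settings. The DEGS1 difference from scramble, -0.21 ± 0.10, did not pass the test (limma adjusted p of 0.297), nor did that from SPTLC123, 0.33 ± 0.10 (adjusted p of 0.131). Without the weak arrays these were -0.092 and 0.47. TDO2 and HAAO, the entry and the last ring-opening step, thus had opposite signs after SPTLC123 siRNA.

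ACMSD, which diverts the semialdehyde away from NAD, fell after DEGS1 siRNA and was the only one of the 8 tested genes called in that comparison. Its levels were 6.22, 6.80 and 6.38 in SPTLC123 arrays, 5.49, 4.62 and 4.98 in DEGS1 arrays, and 6.20, 7.04 and 6.51 in scramble arrays. All 3 DEGS1 arrays lay below the other 6. The group means were 6.47 ± 0.30 in SPTLC123, 5.03 ± 0.44 in DEGS1 and 6.58 ± 0.43 in scramble (SD, n = 3 each). DEGS1 arrays held 34.0% of the scramble signal, a difference of -1.56 ± 0.27 (95% interval -2.16 to -0.95, limma adjusted p of 0.0173). SPTLC123 arrays held 92.2% of it, a difference of -0.12 ± 0.27. The direct comparison of DEGS1 with SPTLC123 gave -1.44 ± 0.27 (95% interval -2.04 to -0.83, adjusted p of 0.0218).

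The ACMSD difference was smaller without the arrays with weak 5′ signal. DEGS1 replicate 1, which has a normal 5′ control signal, was the highest of the 3 DEGS1 arrays at 5.49 and still lay under the lowest scramble array at 6.20. Without the 3 weak arrays the difference from scramble was -1.10 with a limma adjusted p of 0.276, and that from SPTLC123 was -1.02 with an adjusted p of 0.320. With the actin covariate both were called, at -1.29 (adjusted p of 0.0276) and -1.28 (adjusted p of 0.00921). Over 16 alternatives the difference from scramble stayed between -1.79 and -1.10 and was called in 10, and that from SPTLC123 stayed between -1.67 and -1.02 and was called in 11. The call against scramble was also lost without DEGS1 replicate 2 (-1.35, adjusted p of 0.0715), DEGS1 replicate 3 (-1.53, 0.0792), scramble replicate 2 (-1.33, 0.0601) or scramble replicate 3 (-1.59, 0.0655), and in a fit of the 2 groups alone (adjusted p of 0.0505). The call against SPTLC123 was also lost without SPTLC123 replicate 1 (adjusted p of 0.0595), SPTLC123 replicate 2 (0.0888), DEGS1 replicate 2 (0.0856) or DEGS1 replicate 3 (0.0888).

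Over the 18 probe sets of the 8 genes other than TDO2 and NNMT, the comparison of DEGS1 with scramble called 0 higher and 1 lower, or 5.56%, against 3.42% of all probe sets and 1.60% in the lower direction. As this is 1 probe set, the share is not set apart from the background. At an unadjusted limma p under 0.05 there were 3, or 16.7%, against 19.4% of all probe sets. The 3 DEGS1 and 3 scramble arrays did not overlap for 6 member probe sets, 1 higher (TDO2) and 5 lower (ACMSD, HAAO, 2 of NNMT and 1 of KYNU), where 21.3% of all probe sets did not overlap; the 3 of TDO2 and NNMT are part of the description. The median difference of the members was -0.10, against -0.0027 over all probe sets.

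**Figure D2:**
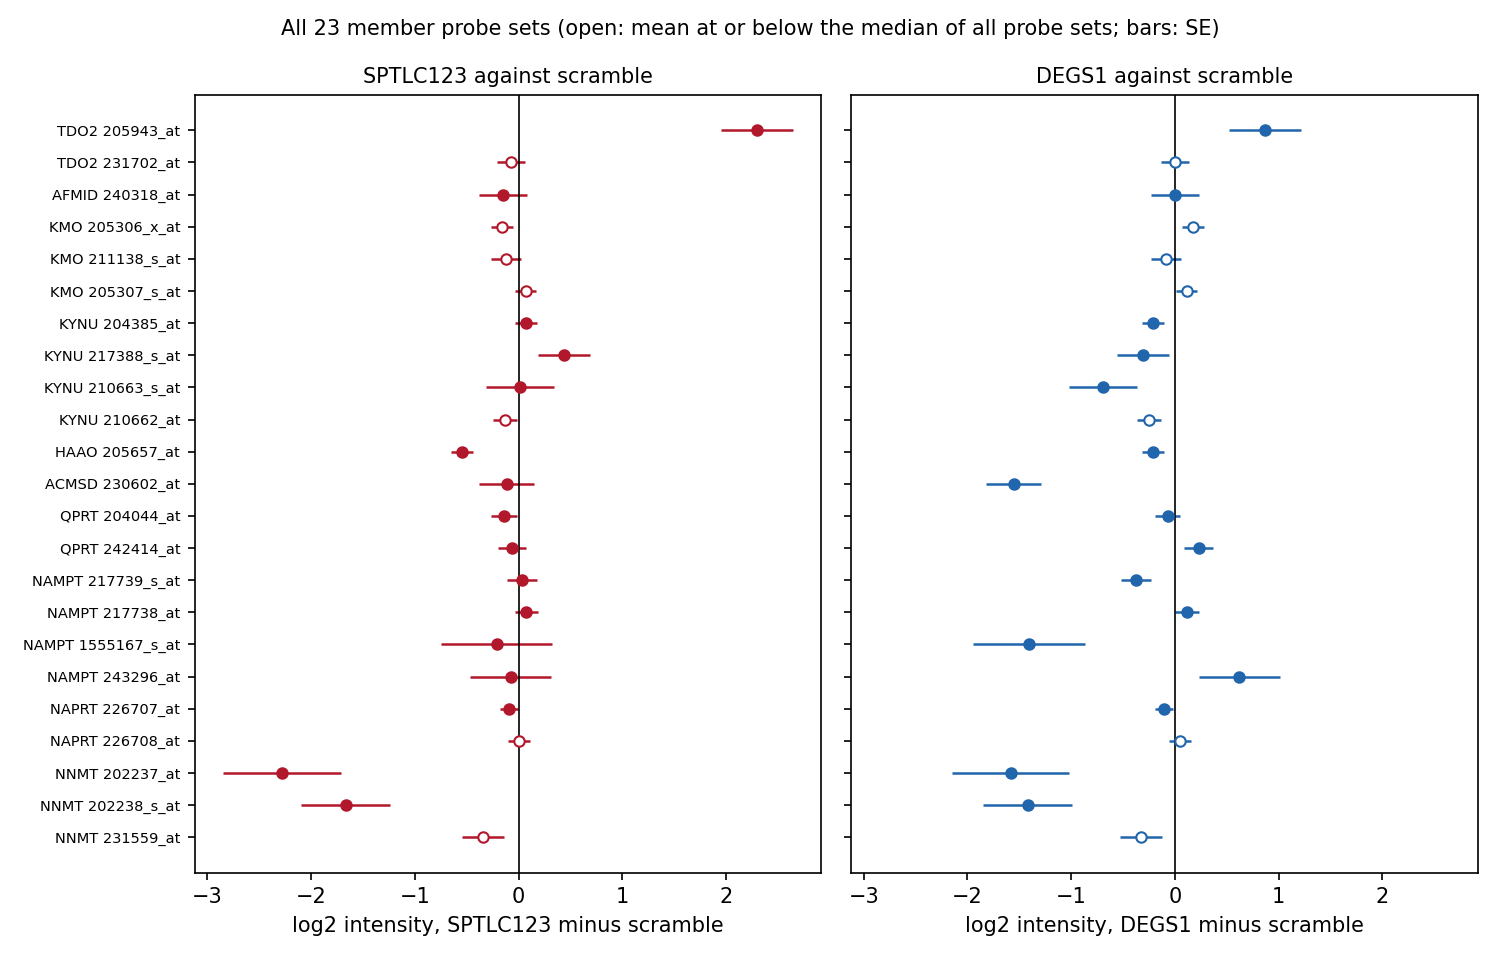
Log2 difference from scramble (x axis) of the 23 probe sets of the 10 genes, with bars of 1 SE, for SPTLC123 siRNA (left) and DEGS1 siRNA (right); open points have a mean at or below the median of all values. After SPTLC123 siRNA TDO2 205943_at lies at 2.29 and NNMT 202237_at at -2.28; after DEGS1 siRNA ACMSD lies at -1.56.

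The enzymes that feed NAD synthesis differed little in their brighter probe sets. QPRT, which takes up quinolinate, had levels of 10.41, 10.51 and 10.22 in SPTLC123 arrays, 10.66, 10.36 and 10.33 in DEGS1 arrays, and 10.45, 10.67 and 10.44 in scramble arrays for probe set 204044_at. Its second probe set, 242414_at, lay at 9.74 to 9.85 in SPTLC123 arrays, 10.03 to 10.12 in DEGS1 arrays and 9.54 to 10.15 in scramble arrays. The DEGS1 differences from scramble were -0.07 ± 0.12 (95% interval -0.35 to 0.21) and 0.23 ± 0.14 (-0.08 to 0.54). NAPRT, the nicotinic acid enzyme, lay at 8.92 to 9.06 in SPTLC123 arrays, 8.92 to 9.07 in DEGS1 arrays and 8.99 to 9.14 in scramble arrays for probe set 226707_at. Its DEGS1 difference from scramble was -0.10 ± 0.09 with a 95% interval of -0.30 to 0.09, so a change beyond 0.30 lay outside that interval. Its other probe set, 226708_at, lay under the median of all values at 4.39 to 4.71.

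NAMPT, which recycles nicotinamide to NAD, gave probe sets that disagreed. Probe set 217739_s_at had levels of 9.10, 9.02 and 8.90 in SPTLC123 arrays, 8.87, 8.53 and 8.40 in DEGS1 arrays, and 8.76, 9.13 and 9.03 in scramble arrays. Probe set 217738_at lay at 8.37 to 8.44 in SPTLC123 arrays, 8.42 to 8.51 in DEGS1 arrays and 8.10 to 8.57 in scramble arrays. These gave DEGS1 differences from scramble of -0.38 ± 0.14 (limma adjusted p of 0.196) and 0.12 ± 0.12 (0.631), so these probe sets differed in sign and neither was called. Without the weak arrays the first was -0.11 and the second 0.17, while 217739_s_at was called with array weights (-0.45, adjusted p of 0.0279) and without DEGS1 replicate 1 (-0.51, 0.0285).

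The remaining NAMPT probe sets separated the arrays by their 5′ control signal. Probe set 1555167_s_at had levels of 8.03, 8.19 and 6.70 in SPTLC123 arrays, 7.72, 5.94 and 5.67 in DEGS1 arrays, and 7.61, 8.02 and 7.92 in scramble arrays. Probe set 243296_at had levels of 5.15, 4.77 and 5.97 in SPTLC123 arrays, 5.13, 6.47 and 6.38 in DEGS1 arrays, and 5.69, 5.15 and 5.28 in scramble arrays. The 3 arrays with weak 5′ signal were the lowest in the first, at 5.67 to 6.70 against 7.61 to 8.19 in the other 6, and the highest in the second, at 5.97 to 6.47 against 4.77 to 5.69. The DEGS1 differences from scramble, -1.41 ± 0.54 and 0.62 ± 0.39, did not pass the test (limma adjusted p of 0.198 and 0.421) and were -0.13 and -0.24 without these arrays. Without DEGS1 replicate 1 both were called, at -2.04 (adjusted p of 0.00962) and 1.05 (0.0447), and with array weights the first was (-1.81, 0.0123).

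Of the 23 member probe sets, 5 separated the 3 arrays with weak 5′ signal from the other 6, 4 lower and 1 higher, where 18.4% of all probe sets did. Besides these 2 of NAMPT they were 210663_s_at of KYNU, at 4.99 to 5.78 against 5.88 to 6.43, 204044_at of QPRT, at 10.22 to 10.36 against 10.41 to 10.67, and the dim 231559_at of NNMT, at 3.03 to 3.42 against 3.50 to 4.08. For TDO2, HAAO, ACMSD and the brighter NNMT probe sets the weak and the other arrays overlapped. That overlap cannot show freedom from the 5′ signal, because the weak arrays are spread over groups that differ in these genes. In TDO2 205943_at and the brighter NNMT probe sets, every weak array lay below the normal arrays of its own group. In HAAO and ACMSD this held within DEGS1, while SPTLC123 replicate 3 lay between the other SPTLC123 arrays.

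**Figure D3:**
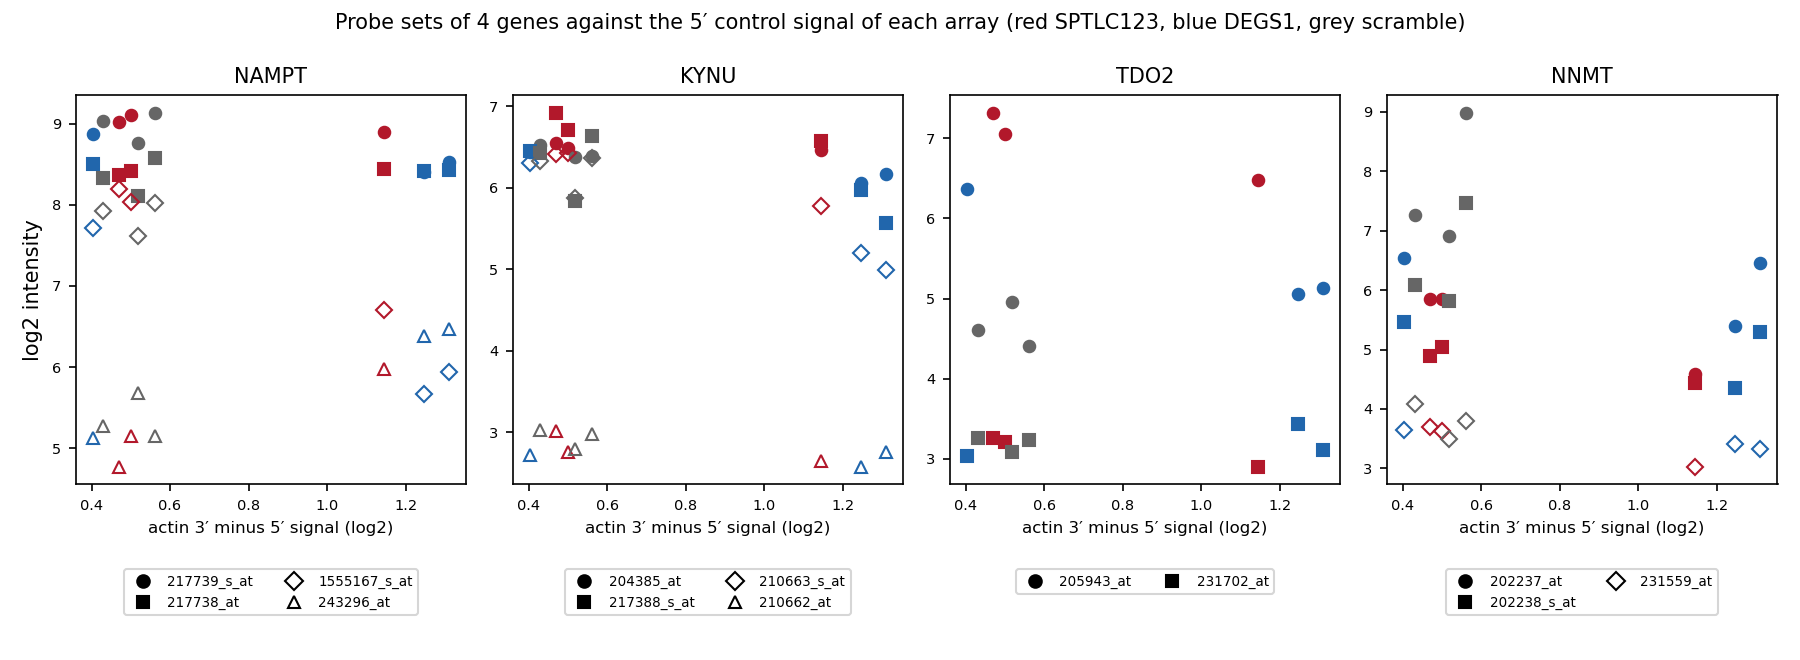
Log2 intensity (y axis) of every probe set of NAMPT, KYNU, TDO2 and NNMT against the actin 3′ minus 5′ log2 difference of each array (x axis), with SPTLC123 in red, DEGS1 in blue, scramble in grey and a marker shape for each probe set. The 3 arrays at 1.15 to 1.31 on the x axis are low in NAMPT 1555167_s_at (5.67 to 6.70, against 7.61 to 8.19), while NAMPT 217738_at stays within 8.10 to 8.57 in all 9.

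NNMT, the nicotinamide methyltransferase, was lowest after SPTLC123 siRNA and also low after DEGS1 siRNA. Probe set 202237_at had levels of 5.85, 5.86 and 4.60 in SPTLC123 arrays, 6.54, 6.45 and 5.40 in DEGS1 arrays, and 6.90, 8.99 and 7.26 in scramble arrays, the widest range among the member probe sets at 4.39. Probe set 202238_s_at had levels of 5.04, 4.90 and 4.44 in SPTLC123 arrays, 5.47, 5.29 and 4.36 in DEGS1 arrays, and 5.82, 7.47 and 6.09 in scramble arrays. In both, all 6 knockdown arrays lay below all 3 scramble arrays, the SPTLC123 and DEGS1 arrays overlapped, and scramble replicate 2 stood above the other 2 scramble arrays.

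SPTLC123 arrays held 20.6% of the scramble signal by the first NNMT probe set and 31.5% by the second, differences of -2.28 ± 0.57 and -1.67 ± 0.43. DEGS1 arrays held 33.3% and 37.4% of it, differences of -1.59 ± 0.57 and -1.42 ± 0.43. Scramble replicate 2 carried much of the size: without it the first probe set differed by -1.65 in SPTLC123 arrays and by -0.95 in DEGS1 arrays. Without the 3 arrays with weak 5′ signal the first probe set differed by -1.86 in SPTLC123 arrays and by -1.17 in DEGS1 arrays. For the second probe set the DEGS1 difference lay between -1.74 and -0.91 over 15 alternatives. The third probe set, 231559_at, lay under the median of all values at 3.03 to 4.08.

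After SPTLC123 siRNA, 4 of the 23 member probe sets did not overlap with scramble, 1 higher (TDO2) and 3 lower (HAAO and 2 of NNMT), where 22.4% of all probe sets did not overlap. As values of this comparison chose the genes, nothing is read from the count. The median difference of the members was -0.09, against -0.02 over all probe sets. The other 19 probe sets had differences between -0.34 and 0.44, the highest for KYNU 217388_s_at.

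Set directly against SPTLC123 arrays, DEGS1 arrays differed in ACMSD and, by description, in TDO2. Of the 23 probe sets, 8 did not overlap between DEGS1 and SPTLC123 arrays, 3 higher (HAAO, 1 of KMO, 1 of QPRT) and 5 lower (ACMSD, TDO2, 2 of KYNU and 1 of NAMPT), where 19.8% of all probe sets did not. As values of SPTLC123 arrays chose TDO2 and NNMT, their probe sets in this count are part of the description. By limma, 1 of the 18 tested was called, ACMSD, where 3.69% of all probe sets were called and 2.11% in the lower direction. At an unadjusted limma p under 0.05 there were 6 of the 18, or 33.3%, against 17.7% of all probe sets. As KYNU gave more than 1 of these, they are not independent, and the share was not tested. TDO2 stood at 37.2% of the SPTLC123 signal in DEGS1 arrays, a difference of -1.43 ± 0.35 that was -0.82 without the arrays with weak 5′ signal. The brighter NNMT probe sets differed by 0.70 ± 0.57 and 0.25 ± 0.43, and the groups overlapped in both. KYNU 217388_s_at differed by -0.74 ± 0.25 and NAMPT 217739_s_at by -0.41 ± 0.14, and neither passed the test (adjusted p of 0.165 and 0.178). Without the weak arrays they differed by -0.37 and -0.19. Both were called with array weights (-0.93, adjusted p of 0.0210, and -0.52, 0.0199) and without DEGS1 replicate 1 (-0.97, 0.0264, and -0.54, 0.0276).

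Other genes of these pathways were read by the brightest probe set of each gene, with p-values adjusted over all probe sets. On that footing 5.16% of 19775 genes were called in DEGS1 against scramble and 6.42% in SPTLC123 against scramble. Of 20 further genes of tryptophan uptake, kynurenine transamination and serotonin metabolism, 2 rose and 1 fell after DEGS1 siRNA, and 1 rose and 0 fell after SPTLC123 siRNA. Without the arrays with weak 5′ signal 1 rose and 1 fell after DEGS1 siRNA, and 1 rose and 0 fell after SPTLC123 siRNA. The median difference of the 20 was -0.03 after DEGS1 siRNA and 0.03 after SPTLC123 siRNA.

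MAOB, an amine oxidase that also degrades amines made from tryptophan, rose after both knockdowns. Its mean level was 10.36 ± 0.04 in SPTLC123 arrays, 10.24 ± 0.08 in DEGS1 arrays and 8.95 ± 0.07 in scramble arrays (SD, n = 3 each). The limma differences from scramble were 1.42 ± 0.08 for SPTLC123 (adjusted p of 6.01e-05) and 1.29 ± 0.08 for DEGS1 (adjusted p of 0.000274), and both held without the arrays with weak 5′ signal. SLC3A2, the heavy chain of the transporter that carries tryptophan into cells, fell after DEGS1 siRNA by 0.73 ± 0.09 (adjusted p of 0.00372), while its light chain SLC7A5 differed by -0.62 ± 0.16 and did not pass (adjusted p of 0.0738). SLC16A10, an aromatic amino acid carrier, rose after DEGS1 siRNA by 0.58 ± 0.10 (adjusted p of 0.0146), and its 2 other probe sets by 1.14 (0.00465) and 1.33 (0.00665). Without the arrays with weak 5′ signal SLC3A2 differed by -0.64 (adjusted p of 0.125), SLC16A10 by 0.61 (0.196) and SLC7A5 by -0.95 (0.0442). IDO1 and IDO2, the dioxygenases that share TDO2's reaction, differed from scramble after DEGS1 siRNA by 0.30 and -0.04, and IDO2 lay under the median of all values.

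Of 28 further genes of NAD synthesis and use, 0 rose and 1 fell after DEGS1 siRNA, and 1 rose and 1 fell after SPTLC123 siRNA. ENPP1, an ectoenzyme that cleaves nucleotides, had a mean level of 7.81 in SPTLC123 arrays, 8.06 in DEGS1 arrays and 8.77 in scramble arrays. It fell by 0.96 ± 0.12 after SPTLC123 siRNA (limma adjusted p of 0.00329) and by 0.71 ± 0.12 after DEGS1 siRNA (adjusted p of 0.0182), and without the arrays with weak 5′ signal the differences were -1.03 (adjusted p of 0.00454) and -0.61 (0.183). Its 3 other probe sets were also lower after both knockdowns, at -1.16 to -0.67 after SPTLC123 siRNA and -0.99 to -0.49 after DEGS1 siRNA. SIRT7, a nuclear NAD-dependent deacylase, rose after SPTLC123 siRNA by 0.53 ± 0.12 (adjusted p of 0.0362), and without the weak arrays the difference was 0.52 (adjusted p of 0.0905).

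NNMT draws on S-adenosylmethionine, and of 16 measured genes of methyl supply 2 rose and 0 fell after SPTLC123 siRNA, while 0 passed after DEGS1 siRNA. MTAP, an enzyme of methionine salvage, rose by 1.06 ± 0.15 (limma adjusted p of 0.00568) and BHMT2, a methyltransferase that makes methionine, by 0.49 ± 0.09 (adjusted p of 0.0197) after SPTLC123 siRNA. A second MTAP probe set, 204956_at, differed by 0.87 after DEGS1 siRNA (adjusted p of 0.00447), where the brightest differed by 0.29 (0.341). After SPTLC123 siRNA 204956_at differed by 1.25 (adjusted p of 0.000487). The remaining MTAP probe sets were not called in either comparison. They differed by -0.20 to 0.72 after SPTLC123 siRNA and by -0.27 to 0.05 after DEGS1 siRNA. MAT2A, which makes S-adenosylmethionine, differed by 0.41 after SPTLC123 siRNA and did not pass (adjusted p of 0.0694).

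KMO uses a flavin and TDO2 haem. RFK, the kinase that makes the flavin FMN, rose by 1.47 ± 0.09 after SPTLC123 siRNA (limma adjusted p of 0.000111) and by 1.09 ± 0.09 after DEGS1 siRNA (adjusted p of 0.000854), as 1 of 3 measured cofactor genes, and a second RFK probe set differed by 1.27 after SPTLC123 siRNA (0.000346) and by 0.34 after DEGS1 siRNA (0.113). CPOX, coproporphyrinogen oxidase of haem synthesis, fell after SPTLC123 siRNA by 2.93 ± 0.20 (adjusted p of 0.000173) and was the only one of 11 haem genes called there. After DEGS1 siRNA it differed by -0.69 (adjusted p of 0.111), and by -0.23 without the weak arrays, and none of the 11 was called.

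Kynurenine is a ligand of AHR, and glucocorticoids induce TDO2 in liver. Among 10 measured genes of AHR signalling, 1 rose and 1 fell after DEGS1 siRNA, and 1 rose and 0 fell after SPTLC123 siRNA. AHR rose by 0.63 ± 0.12 after each knockdown (limma adjusted p of 0.0203 for SPTLC123 and 0.0267 for DEGS1), and without the arrays with weak 5′ signal it differed by 0.59 after SPTLC123 siRNA (0.0592) and by 0.52 after DEGS1 siRNA (0.340). Of its target genes CYP1A1 differed by 0.33 after SPTLC123 siRNA and by 0.24 after DEGS1 siRNA and was not called, whereas NQO1, a quinone reductase, fell by 0.65 ± 0.14 after DEGS1 siRNA (adjusted p of 0.0387), and differed by -0.37 without the weak arrays (0.404). Another NQO1 probe set, 201468_s_at, rose after SPTLC123 siRNA by 0.47 (adjusted p of 0.0178) and differed by -0.28 after DEGS1 siRNA (0.131). Of 13 glucocorticoid-responsive genes, 2 rose and 1 fell after SPTLC123 siRNA, and 1 rose and 1 fell after DEGS1 siRNA. ZBTB16, a transcription factor, rose by 0.76 ± 0.11 after SPTLC123 siRNA (adjusted p of 0.00555) and by 0.67 ± 0.11 after DEGS1 siRNA (0.0141). TSC22D3, which encodes a glucocorticoid-induced leucine zipper protein, differed by -1.76 ± 0.29 after SPTLC123 siRNA (adjusted p of 0.0108) and by -1.29 ± 0.29 after DEGS1 siRNA (0.0493). Without the weak arrays the DEGS1 differences were 0.54 for ZBTB16 (adjusted p of 0.196) and -0.97 for TSC22D3 (0.442), and with the actin covariate ZBTB16 was called at 0.54 (0.0306). The other probe sets of TSC22D3 differed by -0.64 and 0.04 after SPTLC123 siRNA and by -0.70 and 0.08 after DEGS1 siRNA, and neither was called. PCK1, of gluconeogenesis, rose after SPTLC123 siRNA by 1.00 ± 0.23 (adjusted p of 0.0438), and differed by 1.04 without the weak arrays (0.0693).

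Interleukin 6 signalling through STAT3 is known to induce NNMT in hepatoma cells. Of 10 measured genes of that pathway 1 fell after DEGS1 siRNA and none was called after SPTLC123 siRNA. The gene was IL6ST, the shared receptor subunit gp130, with mean levels of 10.64 ± 0.06 in SPTLC123 arrays, 9.50 ± 0.10 in DEGS1 arrays and 10.89 ± 0.11 in scramble arrays (SD, n = 3 each). It fell by 1.39 ± 0.09 after DEGS1 siRNA (limma adjusted p of 0.000371, and 0.0182 without the weak arrays) and differed by -0.25 after SPTLC123 siRNA (adjusted p of 0.201). Another IL6ST probe set, 212196_at, fell by 1.72 after DEGS1 siRNA (adjusted p of 0.0261) but differed by -0.99 without the weak arrays (0.0849), and the remaining 5 were not called, at -2.24 to 0.08.

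Of the 9 hepatocyte markers, 3 fell after SPTLC123 siRNA, the secreted plasma proteins TTR (by 1.03), APOA1 (by 0.46) and TF (by 0.37), and APOH fell after DEGS1 siRNA (by 0.95). Without the weak arrays 1 of 9 was called lower after SPTLC123 siRNA, TTR at -0.83 (limma adjusted p of 0.00855), while APOA1 was -0.44 (0.0623) and TF -0.39 (0.103). None was called after DEGS1 siRNA there, with APOH at -0.50 (0.387). These markers moved in the same arrays as NNMT and HAAO, and their part in those differences was not tested.

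**Figure D4:**
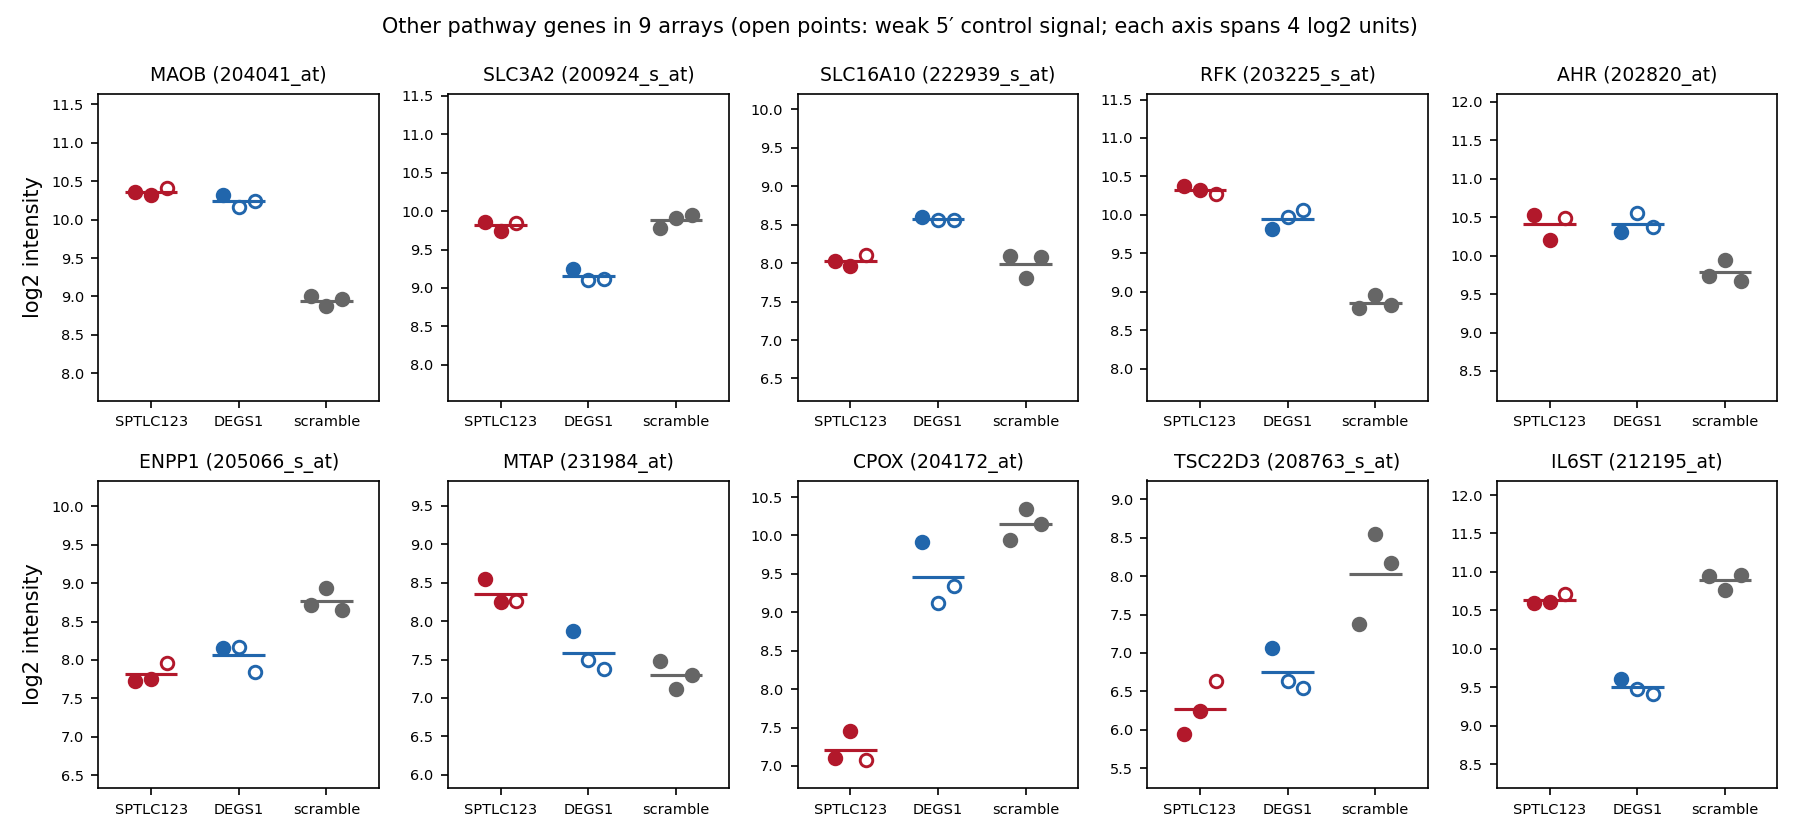
Log2 intensity (y axis, 4 log2 units in each panel) of 10 genes of the pathway lists in every array, by group; bars are group means and open points are the 3 arrays with weak 5′ control signal. CPOX is lowest in SPTLC123 arrays (mean 7.21, against 10.15 in scramble), IL6ST in DEGS1 arrays (9.50, against 10.89), and MAOB is higher in both knockdowns (10.36 and 10.24, against 8.95).

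Among 12629 genes whose brightest probe set averaged above the median of all values, the 5 whose levels followed TDO2 205943_at most closely over the 9 arrays were ADGRL2 (Pearson r of 0.965), HDAC1 (0.964), JPT1 (0.963), MTAP (0.961) and PRMT1 (0.961). ADGRL2, an adhesion receptor, had mean levels of 10.30 in SPTLC123, 9.91 in DEGS1 and 9.71 in scramble arrays, the same order as TDO2 over a narrower range. The 5 that followed NNMT 202237_at were BORCS5 (0.985), BNIP3L (0.982), MASP1 (0.982), CAMTA1 (0.982) and SIRT5 (0.977). BNIP3L, a mitophagy receptor, had mean levels of 8.67 in SPTLC123, 9.15 in DEGS1 and 9.95 in scramble arrays. These correlations describe the same 9 arrays, which share group differences and 5′ signal, and carry no test.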

How the data were processed

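Total RNA was measured on 9 biotin-labelled 1-colour arrays, 3 per group, with groups and replicate numbers from the titles. The authors deposited 1 normalized, linear intensity for each array's probe sets. Tools named in the submitters' processing notes were limma 2.14.7, GCRMA 2.12.1 and RMA, and which of the last 2 made the values is not given in the sources used here. Values ran from 4.88 to 27330.59 and no deposited column lacked a sample (0). The deposited intensity was turned into log2 with no pseudocount. Values near background understate fold changes. Of 54675 probe sets, 62 Affymetrix controls were left out. By the platform's annotation 41091 had 1 gene, 1801 several and 11721 were not listed; all 23 member probe sets matched RefSeq by gene number.

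All probe sets and all 9 arrays went into 1 linear model with a mean for each group (limma 3.58.1 with statmod 1.5.0 in R 4.3.3, lmFit and eBayes, two-sided, 6 residual degrees of freedom), with Benjamini-Hochberg adjustment over 54613 probe sets and calls at an adjusted p under 0.05. It was tested on simulated data. TDO2 and NNMT, whose values entered the choice of genes, were given no test of their own. Named were every member probe set, up to 4 genes of each list by adjusted p, the 5 genes most correlated with TDO2 and with NNMT, and background genes of the lists chosen after their values were seen (SLC7A5, MAT2A, CYP1A1, IDO1, IDO2). The members and lists were chosen with earlier results of these data known. Alternatives were the brightest probe set per gene, a filter on dim probe sets, quantile normalization, median centring, trend with robust eBayes, only 2 groups, array weights, a replicate block, an actin 3′ to 5′ covariate, and leaving out single arrays or the 3 with weak 5′ signal.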

Additional observations from a re-analysis of the deposited data

How the results depend on the processing

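The number of probe sets called depended strongly on the arrays. For DEGS1 against scramble it was 1869, and 859 with only the 2 groups, 10150 with array weights, 193 without the 3 arrays with weak 5′ signal, and 491 to 9061 leaving out 1 array, the highest without DEGS1 replicate 1. The member probe sets called there were 1, and 0 with only the 2 groups, 5 with array weights and 2 with the actin covariate (TDO2 and ACMSD). Leaving out 1 array gave 0 to 6, again highest without DEGS1 replicate 1. NNMT 202238_s_at was among the 5 and among the 6. As TDO2 and NNMT are described with no test, their part in these counts is not read as a result. For SPTLC123 against scramble the number over all probe sets was 2466, and 4591 with the actin covariate and 1166 to 1556 leaving out 1 array. For DEGS1 against SPTLC123 it was 2017, and 993 with only the 2 groups, 9884 with array weights, 3509 with the covariate, 341 without the weak arrays and 722 to 7151 leaving out 1 array. Median centring gave 1748 higher and 771 lower for SPTLC123 against scramble (1437 and 1029 without it) and 648 higher and 1393 lower for DEGS1 against SPTLC123 (862 and 1155 without it). The cause of these shifts was not tested. The 9 pairs of same-numbered arrays had deviations from group means that correlated between -0.49 and 0.70, over 0.1 in 3, and 4 of 9 arrays correlated best with their own number, so the numbers were not taken to pair the arrays; a replicate block gave 1512 calls for DEGS1 against scramble, 2194 for SPTLC123 against scramble, 1672 for DEGS1 against SPTLC123 and 1 member probe set.

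Signs turned only for member probe sets that were not called in the fit used for the results above. KYNU 210663_s_at and NAMPT 243296_at were among them, yet both were called in alternatives of DEGS1 against scramble. Without DEGS1 replicate 1 they differed by -1.10 and 1.05, and with array weights KYNU 210663_s_at differed by -0.96. In DEGS1 against scramble, TDO2 231702_at was -0.012 with quantile normalization, -0.018 with median centring and -0.16 without the weak arrays; AFMID was -0.033, -0.018, -0.19 and, with the covariate, -0.091; KYNU 217388_s_at was 0.0039 with the covariate and 0.15 without the weak arrays, where KYNU 204385_at was 0.0042 and KYNU 210663_s_at 0.11; QPRT 204044_at was 0.095 and 0.14, and NAMPT 243296_at -0.10 and -0.24, with the covariate and without the weak arrays. Leaving out 1 array gave -0.026 to 0.13 for NAPRT 226708_at, -0.12 to 0.082 for TDO2 231702_at, -0.17 to 0.22 for AFMID, -0.24 to 0.059 for KMO 211138_s_at and -0.18 to 0.0041 for QPRT 204044_at. In DEGS1 against SPTLC123, quantile normalization gave 0.066 for NAPRT 226707_at and -0.025 for NAPRT 226708_at; median centring gave -0.017 for KMO 211138_s_at, KMO 205307_s_at and NAMPT 217738_at and -0.018 for NAPRT 226708_at; array weights gave -0.0026 for KMO 205307_s_at, -0.032 for QPRT 204044_at, 0.0088 for NAPRT 226707_at and -0.016 for NAPRT 226708_at; and AFMID was -0.051 without the weak arrays. Leaving out 1 array there gave -0.015 to 0.33 for AFMID, -0.038 to 0.094 for KMO 211138_s_at, -0.060 to 0.028 for NAPRT 226707_at, -0.034 to 0.13 for QPRT 204044_at, -0.048 to 0.11 for KMO 205307_s_at and -0.030 to 0.13 for NAPRT 226708_at. Signal over background limits KMO and the dim probe sets of TDO2, KYNU, NAPRT and NNMT.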
